A study of Mus musculus with 18 samples.

Results

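The Zfp zinc finger genes were described in peritoneal macrophages from mice with wild-type TLR4 (TLR4-WT) or with the mutant forms TLR4-K730R or TLR4-K810R, either mock-treated or treated with LPS (100 ng/ml) for 6 h. The Zfp genes are mouse genes whose symbol is Zfp followed by a number, and Zfp36, Zfp36l1, Zfp36l2 and Zfp36l3, which bind RNA through another kind of finger, were set aside. A gene was a member when its mean reached 1 FPKM (fragments per kilobase of transcript, scaled to library size) in at least 1 of the 6 groups, so members were chosen by their measured level in these libraries. By this rule 192 of the 390 annotated protein-coding Zfp genes were members, out of 9782 genes of all kinds that reached the same level and 13598 genes with any value. RNA-seq covered 3 libraries in each of the 6 groups, 18 in all. The mutant mice carry an arginine in place of a named lysine of the TIR domain, the cytoplasmic signalling domain of TLR4, made by CRISPR/Cas9 knock-in on a C57BL/6 background. The study's methods for peritoneal macrophages describe cells lavaged after thioglycolate injection, the labels give no age for the mice, and neither source says whether the 3 libraries of a group come from separate mice. The p-values therefore measure the spread between these libraries, which may be technical.

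C2H2 zinc finger proteins form one of the largest families of DNA-binding proteins in mammals. Each finger is a short loop held by a zinc ion between a pair of cysteines and a pair of histidines, and fingers in a row read successive bases of DNA. Many members of the family also carry a KRAB domain, which recruits the corepressor Trim28 (KAP1) and through it the histone methyltransferase Setdb1 and HP1 proteins, and KRAB zinc finger genes are known for silencing retroelements. Others carry no KRAB domain and act as activators, as parts of chromatin complexes, on RNA or at the ribosome. LPS, a cell wall component of Gram-negative bacteria, is the ligand that TLR4 senses on macrophages.

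The deposited files list FPKM for transcript events, and rows of first exons and of last exons were summed for each gene and library, the higher sum being taken as the gene's value. Read counts are not in the files, so the depth of each library is unknown and no counting interval can be given. Of 8 macrophage markers 7 are listed, and their summed level was 11600 to 14800 FPKM in mock-treated and 7290 to 10100 FPKM in LPS-treated libraries. Lyz2 carried most of that sum (10400 to 13300 and 5940 to 8750 FPKM), while Adgre1 was at 148 to 253 and 205 to 271 FPKM and Fcgr1 at 26.7 to 51.7 and 160 to 412 FPKM. Cd68 was at 528 to 771 and 387 to 579 FPKM and Csf1r at 360 to 538 and 277 to 422 FPKM. Mertk was at 19.9 to 32.2 and 5.03 to 15.9 FPKM. The summed T cell markers stayed at 0.958 FPKM or lower. Itgam, a macrophage marker, is not listed and Cd14 is listed at 0 in 17 of 18 libraries, so a gene listed at 0 may have been expressed. Tests used limma on log2(FPKM + 1) over the 9707 genes that reached 1 FPKM in 3 or more libraries, and a gene was called at an adjusted p below 0.01. Of the 192 members 186 entered the test, and the other 6 had too few libraries at 1 FPKM. In these bulk samples, fewer cells of a type and less RNA per cell cannot be told apart.

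Most Zfp genes were expressed at a low level. The median of the members' means over all 18 libraries was 2.14 FPKM, against 6.82 FPKM for all tested genes, and 93 members had a mean below 2 FPKM and 10 members a mean of 10 FPKM or more. The median member stood at 2.39 FPKM in mock-treated TLR4-WT macrophages and at 1.61 FPKM after LPS, at 2.39 and 1.67 FPKM in TLR4-K730R and at 2.44 and 1.83 FPKM in TLR4-K810R. Members at or above 1 FPKM numbered 163 and 136 in mock-treated and LPS-treated TLR4-WT, 166 and 129 in the same groups of TLR4-K730R, and 175 and 140 in those of TLR4-K810R. In all 6 groups 111 members reached 1 FPKM, and 15 reached it in 1 group only. Just inside the threshold were Zfp39, Zfp169 and Zfp503, with 1.0022, 1.0157 and 1.0244 FPKM in their highest group, and just outside were Zfp966 (0.996 FPKM), Zfp955b (0.990 FPKM) and Zfp729a (0.987 FPKM). Zfp503 is a member through a single library, replicate 1 of LPS-treated TLR4-WT at 3.07 FPKM, and is listed at 0 in the other 17.

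The spread between replicates of a group was close to that of other genes of the same level. Only groups with a mean of 1 FPKM or more were used for this, so groups in which a gene was lower are left out. The SD within a group was, at the median, 31.7% of the mean for members below 2 FPKM, 16.7% for those from 2 to 10 FPKM and 11.8% for those at 10 FPKM or more. The same shares were 28.4%, 17.1% and 11.8% for all tested genes of those levels. For 29 members at least 1 library is listed at 0. A value was made from both gene ends in 159 members, of which 105 had both sums within 1.5 times of each other, and 33 members have rows for 1 end only.

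The members carried a median of 9 C2H2 fingers, counted by pattern in the coding sequence of the GENCODE M21 annotation. A pattern of the KRAB A box matched in 87 of the 192 members and in 201 of the 390 annotated Zfp genes. Members with the KRAB match had a median of 11 fingers and those without it a median of 7. Of the 87 with the match 69 lay within 100 kb of another Zfp gene, and of the 105 without it 29 did. Chromosome 7 held 40 members, chromosome 17 held 24 and chromosome 9 held 15. The 83 tested members with a KRAB match had a median level of 1.41 FPKM and the 103 without it a median of 3.14 FPKM. Because neighbouring Zfp genes can be near copies, the share of each member's transcript sequence that other annotated genes also hold was measured in runs of 50 bases. This share was under 5% for 154 members and over 50% for 7, among them Zfp965 (96.3%, shared mostly with Zfp973), Zfp973 (84.7%), Zfp971 (51.1%) and Zfp59 (52.4%), whose values are uncertain because reads can be split between copies.

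The most abundant member was Zfp207, which encodes BuGZ, a microtubule-binding protein of spindle assembly. It was listed at 40.8, 41.6 and 32.7 FPKM in mock-treated and 46.2, 36.1 and 46.5 FPKM in LPS-treated TLR4-WT, and its group means lay between 38.3 and 52.9 FPKM in all 6 groups. Those libraries overlap, and no LPS difference of Zfp207 was called (log2 differences 0.16, 0.013 and 0.11 in TLR4-WT, TLR4-K730R and TLR4-K810R). The next were Zfp710 with a mean of 25.7 FPKM, Zfp385a (19.7 FPKM), known as a p53 cofactor, Zfp384 (17.0 FPKM), a nuclear matrix transcription factor, and Zfp513 (14.1 FPKM), whose human counterpart is mutated in a form of retinitis pigmentosa. Zfp710 fell after LPS in TLR4-WT, from 27.7, 34.5 and 32.0 FPKM to 22.1, 24.1 and 20.6 FPKM (log2 difference -0.47, SE 0.10, adjusted p = 0.00145 from limma). This call was lost with the TLR4-WT groups fitted alone (adjusted p = 0.0245 from limma) and under median-of-ratios scaling (log2 difference -0.15, adjusted p = 0.287). In TLR4-K730R and TLR4-K810R its differences were -0.11 and -0.14 and were not called. Zfp513 overlaps Snx17 on the opposite strand, a gene with a mean of 40.9 FPKM, and strand-specific counting is not stated in the sources used here, so reads of both may mix.

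The comparison of LPS-treated with mock-treated macrophages asks what TLR4 stimulation changes in each genotype. More Zfp genes fell than rose, and both shares were below those of all genes. In TLR4-WT 6 members were called higher and 20 lower of 186 (3.23% and 10.8%), where 10.4% and 23.9% of all 9707 tested genes were called higher and lower. In TLR4-K730R 4 were higher and 20 lower (2.15% and 10.8%, against 9.32% and 26.5% of all tested genes). TLR4-K810R had 4 higher and 18 lower (2.15% and 9.68%, against 9.08% and 19.7%). In either direction 34.3%, 35.8% and 28.8% of all tested genes were called. The median log2 difference of the members was -0.30, -0.29 and -0.30 in TLR4-WT, TLR4-K730R and TLR4-K810R, and that of all tested genes -0.28, -0.36 and -0.26. Under median-of-ratios scaling the medians of all tested genes became -0.02, -0.04 and -0.04 and those of the members -0.08, -0.01 and -0.10, and the members called higher and lower were 11 and 12, 10 and 8, and 8 and 7. Of all tested genes 15.4% and 14.2%, 15.3% and 13.4%, and 12.3% and 11.7% were then called higher and lower, so the split between Zfp genes called higher and lower depends on the scaling. The 3 LPS libraries lay wholly above the 3 mock libraries for 10 members and wholly below for 64 in TLR4-WT (15.5% and 39.5% of all tested genes). The same counts were 8 and 59 for TLR4-K730R (13.8% and 45%) and 10 and 63 for TLR4-K810R (14.6% and 37.9%). For 4 members (Zfp217, Zfp260, Zfp280b and Zfp59) the libraries lay apart in opposite directions in different genotypes, as they did for 0.711% of all tested genes. Leaving out mock replicate 1, mock replicate 3 or LPS replicate 1 of TLR4-WT gave 3 higher members there (9.09%, 9.12% and 8.97% of all tested genes), and without replicate 1 or 2 of LPS-treated or replicate 3 of mock-treated TLR4-K810R 10, 11 and 10 were lower (17%, 16.3% and 15.5% of all tested genes), with 2 higher in the first of these (7.99%).

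**Figure D1:**
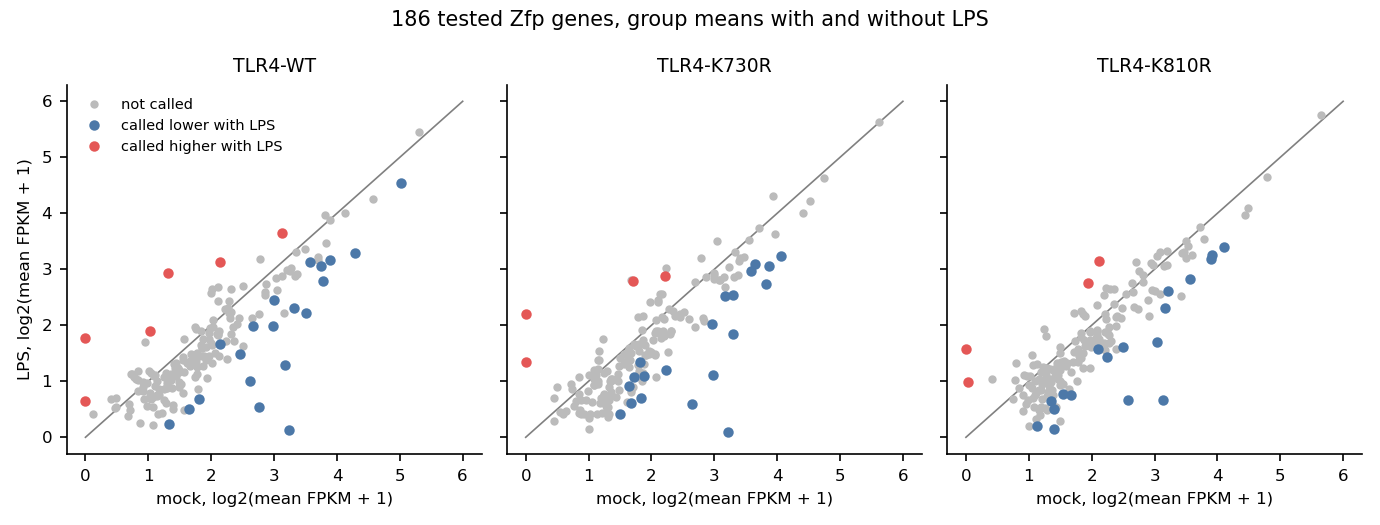
Mean of each tested Zfp gene in mock-treated (x axis) and LPS-treated (y axis) macrophages, both as log2(mean FPKM + 1), in TLR4-WT, TLR4-K730R and TLR4-K810R. Each point is 1 of 186 genes, the grey line marks equal values, and blue and red points are genes called lower (20, 20 and 18) and higher (6, 4 and 4) with LPS.

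The share of all tested genes called lower differed between levels, so the counts were also split by the mean level of the gene. Among genes with a mean from 2 to 10 FPKM, 15.7%, 13.5% and 11.2% of the 89 members and 25.1%, 28.2% and 20.7% of 3911 tested genes were called lower in TLR4-WT, TLR4-K730R and TLR4-K810R. Below 2 FPKM the shares were 3.45%, 6.90% and 6.90% of 87 members and 13.7%, 15.5% and 13.7% of 1944 tested genes. Of the 10 members at 10 FPKM or more, 3, 2 and 2 were called lower (30%, 20% and 20%) and 0 were called higher in any genotype. Of the 3852 tested genes of that level 27.8%, 30.2% and 21.8% were called lower and 15.9%, 14.9% and 15.7% higher. The rule favours genes that are high in 1 group, so the counts over the 111 members at 1 FPKM or more in all 6 groups are given beside these. Of them 4, 2 and 2 were called higher (3.60%, 1.80% and 1.80%, against 10.4%, 9.32% and 9.08% of all tested genes) and 15, 13 and 10 lower (13.5%, 11.7% and 9.01%, against 23.9%, 26.5% and 19.7%). All tested genes were not filtered in this way, and their median level was 6.82 FPKM against 3.43 FPKM, so these shares do not compare like sets.

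**Figure D2:**
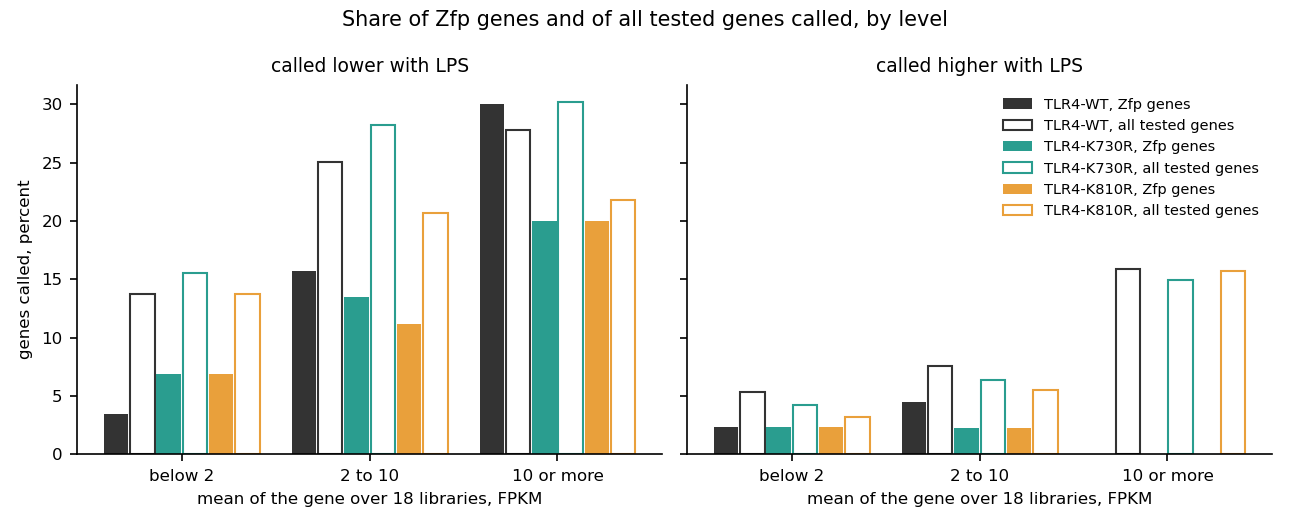
Percent of genes called lower (left) and higher (right) with LPS, by the mean level of the gene over 18 libraries in FPKM. Filled bars are Zfp genes and open bars all tested genes, in the 3 genotypes. The filled bars are below the open ones of the same genotype and level except for genes at 10 FPKM or more called lower in TLR4-WT, where 30.0% of 10 Zfp genes and 27.8% of all tested genes were called.

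In all 3 genotypes 11 members were called lower and 2 higher, where 15.1% and 7.15% of all tested genes were. In at least 1 genotype 31 were lower and 8 higher, against 32.4% and 12.5% of all tested genes (44.9% in either direction), and 0 members were called in opposite directions. Of the 11 genes lower throughout 2 have a KRAB match, Zfp971 and Zfp655, and 3 lie within 100 kb of another Zfp gene.

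Zfp395 showed the largest LPS difference of these 11. Its protein holds a single C2H2 finger, and the human counterpart is known as papillomavirus binding factor. The gene (ENSMUSG00000034522) lies on chromosome 14 from 65358389 to 65398930 of GRCm38, plus strand. Mock-treated libraries stood at 8.55, 7.81 and 8.99 FPKM in TLR4-WT, at 8.33, 7.15 and 9.44 FPKM in TLR4-K730R, while TLR4-K810R gave 7.04, 8.15 and 8.23 FPKM. After LPS the values were 0.0967, 0.164 and 0.0232 FPKM in TLR4-WT, 0.0793, 0.0628 and 0.0576 FPKM in TLR4-K730R, and 0.600, 0.609 and 0.553 FPKM in TLR4-K810R. Mock-treated and LPS-treated libraries did not come near each other in any genotype, and the 3 LPS-treated TLR4-K810R libraries lay above the 6 of the other genotypes. The log2 differences were -3.11, -3.12 and -2.47 (SE 0.12 each, adjusted p = 2.41e-11, 1.60e-11 and 2.41e-10 from limma). Zfp395 met the rule for members only through mock-treated groups, so the rule favoured such a difference. Its values and p-values are a description and not independent support. On the scale of FPKM the mock mean was 89.5, 125 and 13.3 times the LPS mean. Under LPS the log2 difference of TLR4-K810R from TLR4-WT was 0.54 (adjusted p = 0.0382 from limma), which missed the threshold.

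Zfp704 also encodes a protein with 1 recognised finger, and it lies on chromosome 3 from 9427020 to 9610085, minus strand. It was listed at 5.05, 8.18 and 4.17 FPKM in mock-treated and 0.475, 0.349 and 0.532 FPKM in LPS-treated TLR4-WT. It went in TLR4-K730R from 4.40, 4.75 and 6.70 FPKM to 0.519, 0.678 and 0.359 FPKM. In TLR4-K810R it went from 5.91, 4.43 and 4.54 FPKM to 0.620, 0.531 and 0.596 FPKM. The groups with and without LPS were far apart and the 3 genotypes overlapped, with log2 differences of -2.19, -2.04 and -1.91 (SE 0.20 each, adjusted p = 1.99e-07, 4.15e-07 and 1.11e-06 from limma). Zfp704 too is a member only through mock-treated groups, so these values and p-values are a description and not independent support.

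**Figure D3:**
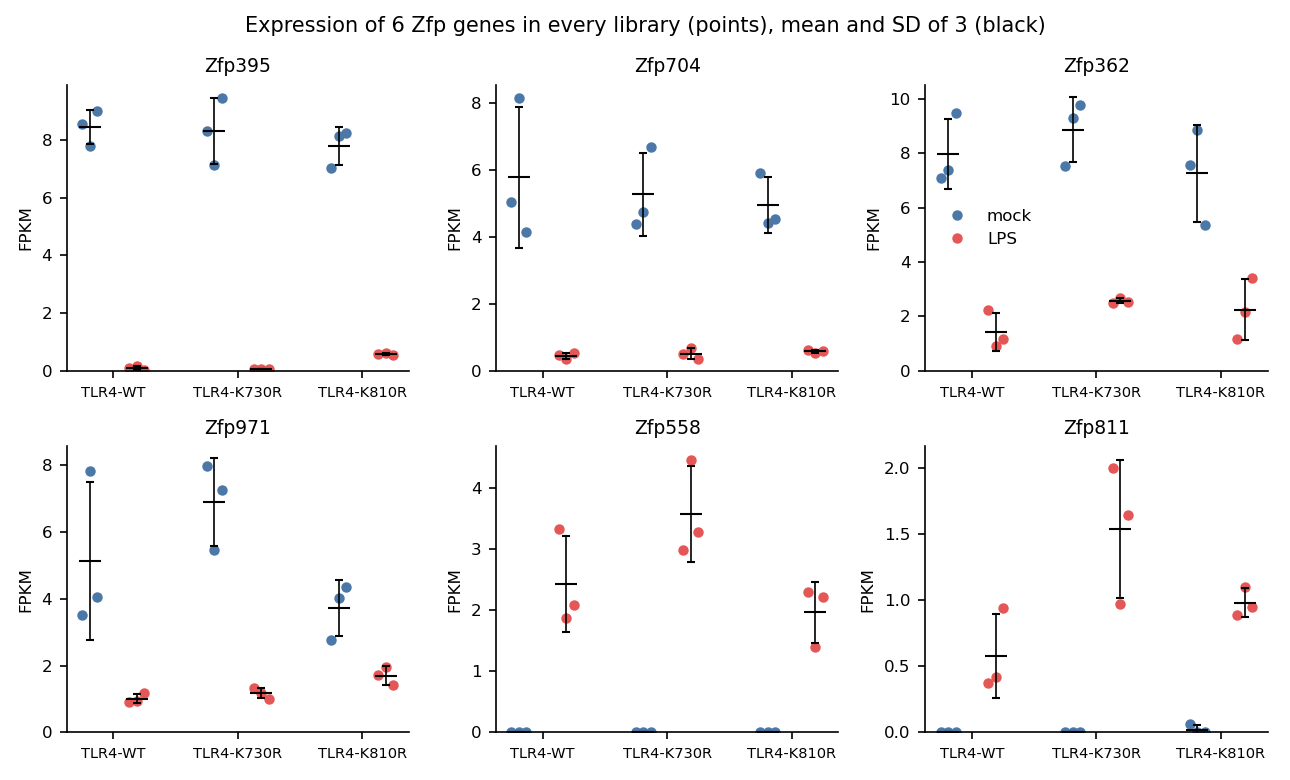
FPKM of 6 Zfp genes called in all 3 genotypes, in every library. Points are libraries (mock blue, LPS red), and black marks are the mean and SD of 3 libraries. Zfp395, Zfp704, Zfp362 and Zfp971 are lower and Zfp558 and Zfp811 higher in every LPS-treated library than in any mock-treated library of the same genotype, and all 9 mock-treated libraries of Zfp558 sit at 0.

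Zfp362, a close relative of Zfp384, lies on chromosome 4 from 128773088 to 128806045, minus strand. Mock-treated values were 7.09, 7.38 and 9.47 FPKM in TLR4-WT, and LPS-treated values were 2.24, 0.930 and 1.17 FPKM. The log2 differences were -1.90, -1.46 and -1.38 in TLR4-WT, TLR4-K730R and TLR4-K810R (SE 0.24 each, adjusted p = 9.75e-06, 0.000137 and 0.000279 from limma). No last-exon row on the gene was used for Zfp362, so its value is that of its first exons, and these were read one by one after their values had been seen. The outer first exon, from 128806012 to 128806045, went from 6.33, 7.13 and 7.09 FPKM to 0.0431, 0.279 and 0.865 FPKM in TLR4-WT. Its means without and with LPS were 8.48 and 1.77 FPKM in TLR4-K730R, and 7.01 and 1.07 FPKM in TLR4-K810R. The inner first exon, from 128794851 to 128794888, had means of 1.13 and 1.05 FPKM without and with LPS in TLR4-WT, and of 0.388 and 0.331 FPKM and 0.253 and 1.18 FPKM in the mutants. Its mock-treated and LPS-treated libraries overlapped in every genotype, and single exons were not tested.

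**Figure D4:**
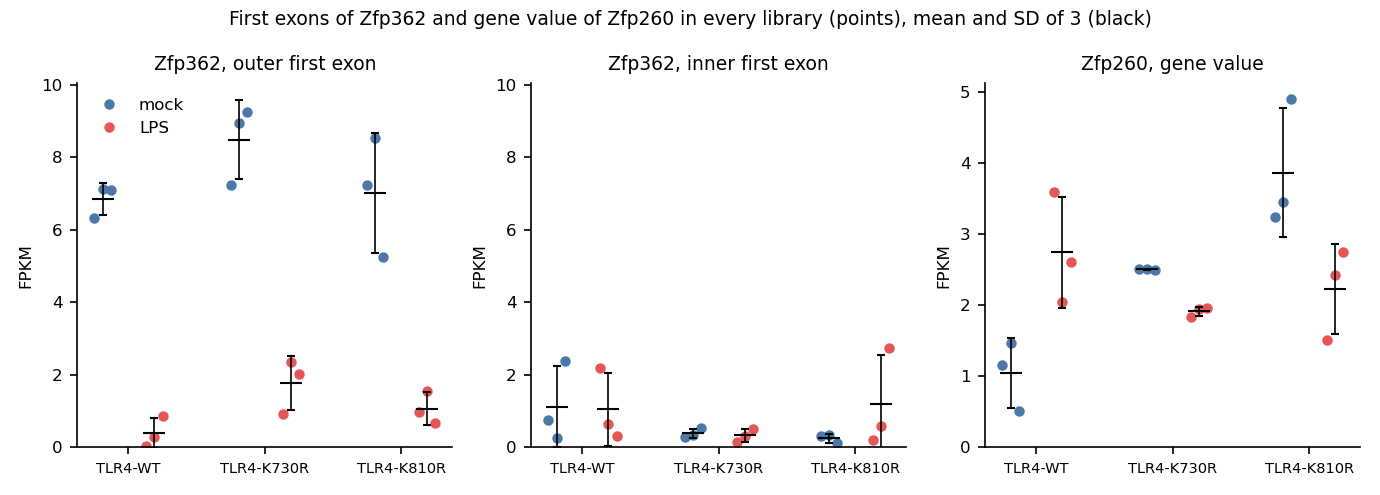
FPKM of the outer and the inner first exon of Zfp362 and gene value of Zfp260 in every library, with mean and SD of 3 libraries in black. The outer exon of Zfp362 is lower in all LPS-treated libraries (red, 0.0431 to 2.36 FPKM) than in all mock-treated ones (blue, 5.25 to 9.25 FPKM), while the inner exon overlaps. Mock-treated Zfp260 is highest in TLR4-K810R (3.24 to 4.90 FPKM).

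Zfp971 is a KRAB zinc finger gene with 12 fingers on chromosome 2, from 178023284 to 178034022, plus strand. It fell from 3.51, 7.83 and 4.04 FPKM to 0.915, 0.945 and 1.18 FPKM in TLR4-WT and from 7.98, 5.44 and 7.25 FPKM to 1.32, 1.19 and 1.01 FPKM in TLR4-K730R (log2 differences -1.54 and -1.85, SE 0.22 each, adjusted p = 2.95e-05 and 4.18e-06 from limma). TLR4-K810R values went from 2.76, 4.03 and 4.36 FPKM to 1.73, 1.97 and 1.41 FPKM, with no overlap (log2 difference -0.79, adjusted p = 0.00881 from limma). The TLR4-K810R call was lost when any 1 library other than mock replicate 1 was left out, and in 6 of 10 further alternatives. With last-exon sums only the TLR4-WT call was lost too (adjusted p = 0.017 from limma). Other annotated genes hold 51.1% of its transcript sequence (28.2% is found in Zfp968), so its reads may in part be theirs.

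The other 7 genes lower in all 3 genotypes were Zfp398, known in human as ZER6, Zfp664, Zfp219, a partner of Sox9 in cartilage cells, Zfp106, an RNA-binding protein needed by motor neurons, Zfp646, Zfp706, known from the exit of embryonic stem cells from self-renewal, and Zfp655, a Vav-interacting protein. Their log2 differences ran from -1.08 to -0.67 in TLR4-WT, from -1.08 to -0.62 in TLR4-K730R and from -0.94 to -0.62 in TLR4-K810R. Zfp398 was listed at 1.12, 1.65 and 1.74 FPKM without LPS and at 0.361, 0.0887 and 0.101 FPKM with it in TLR4-WT, and its mock mean was 8.19, 5.36 and 8.24 times its LPS mean in TLR4-WT, TLR4-K730R and TLR4-K810R. Zfp398 met the rule for members only through mock-treated groups, so its differences are a description and not independent support. Zfp664 stood at 6.80, 7.38 and 6.60 FPKM and fell to 2.87, 2.50 and 3.57 FPKM in TLR4-WT. Zfp219 stood at 12.6, 10.8 and 14.7 FPKM and fell to 6.397, 7.39 and 3.94 FPKM. These libraries do not overlap between treatments, and mock means of Zfp664 and Zfp219 were 1.79 to 2.32 times the LPS means over the 3 genotypes. Zfp106, the most abundant of the 7, fell from 20.9, 19.9 and 14.9 FPKM to 9.30, 8.34 and 8.81 FPKM in TLR4-WT. Zfp706 fell from 13.2, 15.4 and 12.9 FPKM to 7.49, 7.49 and 8.80 FPKM. Zfp646 (8.93 and 3.96 FPKM without and with LPS in TLR4-WT) overlaps Zfp668 on the opposite strand, and Zfp668 was called lower in TLR4-K730R as well. The TLR4-K810R calls of Zfp106, Zfp219 and Zfp646 were lost in 2, 3 and 3 of 6 fits without 1 library, namely LPS replicate 1 or mock replicate 3 for Zfp106, LPS replicate 3 or mock replicates 1 or 2 for Zfp219, and LPS replicates 1 or 2 or mock replicate 1 for Zfp646. Of the 11 genes, 6 (Zfp362, Zfp395, Zfp398, Zfp664, Zfp704 and Zfp706) were still called lower in all 3 genotypes under median-of-ratios scaling, and Zfp106, Zfp219, Zfp646, Zfp655 and Zfp971 were not. With the groups of a comparison fitted alone 6 were called throughout, and Zfp106, Zfp362 (adjusted p = 0.0118 from limma in TLR4-K810R), Zfp646, Zfp655 and Zfp971 were not. With last-exon sums only 6 were called throughout. Zfp219, Zfp362 and Zfp664, which have no last-exon rows, and Zfp398 did not enter that fit, and Zfp971 was not called throughout.

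**Figure D5:**
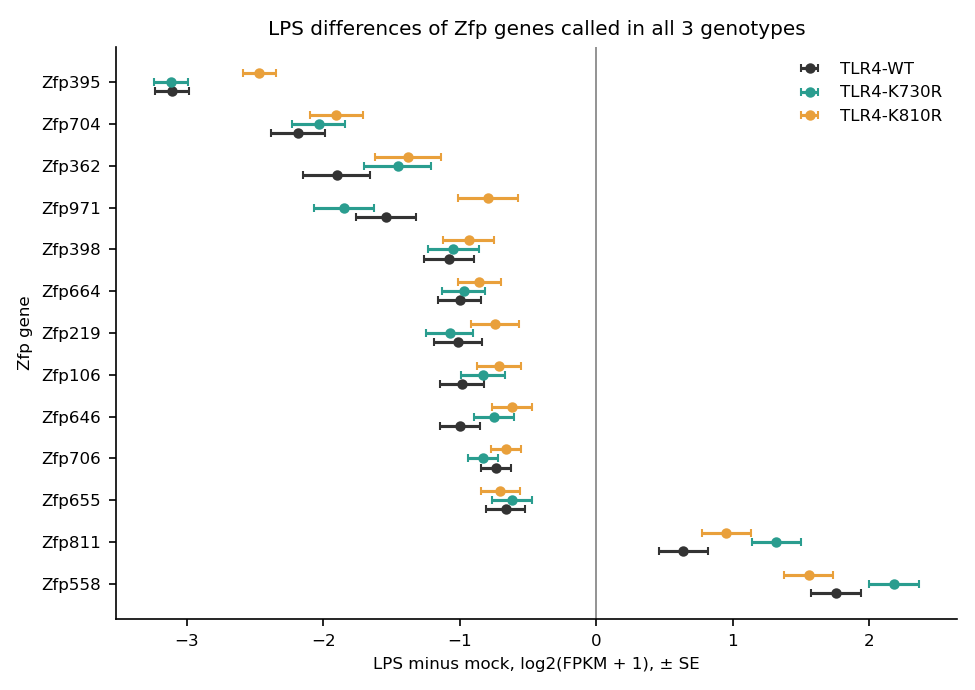
Difference between LPS-treated and mock-treated macrophages on the log2(FPKM + 1) scale for the 13 Zfp genes called in all 3 genotypes, with the standard error from limma. Zfp395 (-3.11, -3.12 and -2.47) lies farthest to the left and Zfp558 (1.76, 2.18 and 1.56) farthest to the right.

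Zfp558 and Zfp811 were the 2 members called higher in all 3 genotypes, and both are KRAB zinc finger genes that mock-treated libraries hardly list. Both met the rule for members only through LPS-treated groups (Zfp811 only in TLR4-K730R), so the rule itself favoured a difference between treatments, and their values and p-values are a description and not independent support. Zfp558 (ENSMUSG00000074500) lies on chromosome 9 from 18455575 to 18478268, minus strand, and codes for 9 fingers. It is listed at 0 in all 9 mock-treated libraries. After LPS it was at 3.34, 1.88 and 2.09 FPKM in TLR4-WT, 2.99, 4.47 and 3.29 FPKM in TLR4-K730R and 2.30, 1.40 and 2.21 FPKM in TLR4-K810R. The 9 LPS-treated libraries thus all list Zfp558, and the ranges of the 3 genotypes overlap for TLR4-WT with either mutant but not between TLR4-K730R and TLR4-K810R. With the pseudocount of 1 the log2 differences were 1.76, 2.18 and 1.56 (SE 0.18 each, adjusted p = 9.33e-07, 7.78e-08 and 4.27e-06 from limma), and these depend on the pseudocount because the mock values are 0. Zfp811 lies on chromosome 17 from 32795676 to 32809931, minus strand, and codes for 13 fingers. It is listed at 0 in 8 of 9 mock-treated libraries and at 0.0641 FPKM in the other. With LPS it was at 0.370, 0.417 and 0.941 FPKM in TLR4-WT, 1.997, 0.967 and 1.65 FPKM in TLR4-K730R and 0.884, 1.10 and 0.951 FPKM in TLR4-K810R. Every LPS-treated library lay above every mock-treated one (log2 differences 0.64, 1.32 and 0.95, SE 0.18 each, adjusted p = 0.00867, 1.81e-05 and 0.000512 from limma). The TLR4-WT call of Zfp811 was lost when any 1 library other than LPS replicate 1 was left out, and its values there are below 1 FPKM. It was also lost with the TLR4-WT groups fitted alone, with library weights or with replicate number as a block. With first-exon sums alone Zfp558 was not called in TLR4-K810R and Zfp811 did not enter the test.

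The 250 bases before the RefSeq start of Zfp558, Zfp811, Zfp971 and Zfp281 are shown as examples, picked after values were seen: the 2 members higher in all 3 genotypes, a KRAB gene lower in all 3, and Zfp281, called higher in TLR4-WT and TLR4-K730R. In each the deposited first exon begins at that start, as it does in other called genes such as Zfp398. They are read 5′ to 3′ toward the start on the gene's strand in GRCm38.p6, and capitals mark the motifs that were searched and found.
Zfp558 (chr9:18473560-18473809, minus strand): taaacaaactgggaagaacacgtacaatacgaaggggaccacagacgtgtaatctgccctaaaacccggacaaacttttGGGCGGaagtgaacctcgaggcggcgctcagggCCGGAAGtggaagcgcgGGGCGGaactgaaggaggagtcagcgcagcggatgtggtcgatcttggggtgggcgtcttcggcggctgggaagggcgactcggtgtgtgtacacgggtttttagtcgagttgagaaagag
Zfp811 (chr17:32809932-32810181, minus strand): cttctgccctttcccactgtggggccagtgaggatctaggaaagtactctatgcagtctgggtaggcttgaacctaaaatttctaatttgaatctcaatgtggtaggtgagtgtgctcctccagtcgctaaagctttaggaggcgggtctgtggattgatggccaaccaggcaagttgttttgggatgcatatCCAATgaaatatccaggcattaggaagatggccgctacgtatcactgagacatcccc
Zfp971 (chr2:178023034-178023283, plus strand): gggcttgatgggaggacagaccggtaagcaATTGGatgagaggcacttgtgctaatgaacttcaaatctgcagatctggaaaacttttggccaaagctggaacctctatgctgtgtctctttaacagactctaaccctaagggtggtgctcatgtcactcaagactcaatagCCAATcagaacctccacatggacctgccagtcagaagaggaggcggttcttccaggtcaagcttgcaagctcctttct
Zfp281 (chr1:136624651-136624900, plus strand): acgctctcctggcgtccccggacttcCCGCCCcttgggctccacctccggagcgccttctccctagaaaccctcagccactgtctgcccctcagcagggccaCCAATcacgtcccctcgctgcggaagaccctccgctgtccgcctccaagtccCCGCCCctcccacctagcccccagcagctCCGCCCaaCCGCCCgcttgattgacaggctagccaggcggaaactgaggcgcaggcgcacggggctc
The motifs searched on both strands were an AP-1 site (TGANTCA), an ETS site (CCGGAAG), the GC box (GGGCGG), the CCAAT box (CCAAT), the TATA box (TATAAA), an interferon-stimulated response element (GAAANNGAAA) and an NF-κB site. The Zfp558 window holds an ETS match and GC boxes on either side of it. The Zfp811 window holds a single CCAAT box, 57 to 53 bases before the start, and the Zfp971 window has CCAAT boxes at 220 to 216 and 78 to 74 bases before it. Zfp281 has 4 GC boxes and a CCAAT box. NF-κB and interferon response matches are absent from these windows, which says only that those letters are not there.

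RefSeq promoters were found for 163 members (202 promoters). Zfp395, Zfp704 and Zfp362 have no entry in this table. A CCAAT box was present in 44.6% of the members' promoters, 35.1% of the promoters of tested genes and 33.8% of all 32851 promoters. The GC box was present in 48.5%, 58.1% and 32.7%, the ETS site in 18.3%, 14.6% and 6.91% and the TATA box in 2.97%, 6.20% and 12.4%. NF-κB matches were in 3.47%, 4.66% and 3.90% and interferon response matches in 1.98%, 2.87% and 2.98%. Of the 29 promoters of members called lower in at least 1 genotype, and of the 13 of members called higher, 0 held an NF-κB or interferon response match. Windows of 1 gene overlap where it has several starts, so these promoters are not independent.

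Among members called in 1 or 2 genotypes, Zfp281, a repressor of pluripotency genes in embryonic stem cells, rose in TLR4-WT and TLR4-K730R. Its values were 3.41, 4.11 and 2.72 FPKM without LPS and 9.12, 8.44 and 5.70 FPKM with it in TLR4-WT. Those in TLR4-K730R went from 3.28, 3.65 and 4.04 FPKM to 6.91, 4.66 and 7.42 FPKM. In TLR4-K810R they went from 3.40, 3.53 and 4.11 FPKM to 4.74, 5.76 and 5.54 FPKM. LPS-treated libraries lay above mock-treated ones in all 3 genotypes, with log2 differences of 0.98 and 0.64 (adjusted p = 0.000364 and 0.00878 from limma) and 0.44, which was not called (adjusted p = 0.0654). The TLR4-K730R call was lost when any 1 library other than LPS replicate 2 was left out and with the TLR4-K730R groups fitted alone. It was also lost with no filter on low values and with replicate number as a block. Zfp821 rose in TLR4-K730R and TLR4-K810R (1.08 and 0.84, with 0.59 in TLR4-WT), Zfp800 rose in TLR4-WT (1.67) and Zfp523, a relative of Zfp143, rose in TLR4-K810R (1.06). Zfp263 was called higher in TLR4-WT (0.51, adjusted p = 0.00993 from limma, with 0.44 and 0.13 in the mutants), and Zfp260 is described with the genotypes. On the lower side Zfp251, Zfp316, Zfp746 and Zfp90 were called in TLR4-WT and TLR4-K730R, and Zfp868 in both mutants. A call in one genotype and not in another does not show a difference between them.

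Of 24 Zfp genes listed by a known role 16 were members, and Zfp281 and Zfp217 were the 2 of them called after LPS in at least 1 genotype, where 44.9% of all tested genes were. At the ribosome, Zfp598, a ubiquitin ligase that senses collided ribosomes, had a mean of 9.27 FPKM in mock-treated TLR4-WT and log2 differences of -0.48, -0.23 and -0.14. Zfp622 and Zfp593, factors of large subunit maturation, had differences from -0.47 to 0.35, and Zfp91 and Zfp451, ligases for ubiquitin and SUMO, from -0.25 to 0.35. Of the silencing factors listed, Zfp809, which targets retroviral primer binding sites, Zfp568, which represses a placental Igf2 transcript, and Zfp932 were members, with differences from -0.39 to 0.30, while Zfp57, Zfp708 and Zfp982 did not reach the threshold of 1 FPKM. None of these 8 genes was called in any genotype. Zfp143, an activator bound at promoters and loop anchors, had differences of 0.36, 0.084 and 0.13. Zfp516 and Zfp467, factors of fat cell development, and Zfp644, a partner of the G9a methyltransferase, were not called either, with differences from -1.04 to -0.11. Zfp217, a CtBP-associated corepressor, fell in TLR4-WT from 11.6, 9.96 and 11.1 FPKM to 7.84, 7.28 and 8.31 FPKM (log2 difference -0.43, adjusted p = 0.00563 from limma). This call was lost without LPS replicate 1 or 2 or mock replicate 1 or 3 and under median-of-ratios scaling. It was also lost with the TLR4-WT groups fitted alone and with replicate number as a block.

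Members with a KRAB match were called lower in 5, 6 and 6 of 83 cases in TLR4-WT, TLR4-K730R and TLR4-K810R, and those without it in 15, 14 and 12 of 103, where 23.9%, 26.5% and 19.7% of all tested genes, and 13.7%, 15.5% and 13.7% of those below 2 FPKM, were called lower. Their median log2 differences were -0.28, -0.31 and -0.33 with the match and -0.32, -0.27 and -0.17 without it. Members without the match were higher in level, so these counts do not compare genes of one level. Of 29 tested Zbtb genes, which pair fingers with a BTB domain, 3, 4 and 4 were called lower and 0 higher. Of 18 Klf, Egr and Sp genes 5, 4 and 4 were lower and 3, 2 and 3 higher, and of 12 Zscan and Zkscan genes 3, 3 and 1 were lower and 0 higher. The partners of KRAB proteins were read from a list of 21 tested corepressor and heterochromatin genes, of which 1, 2 and 2 were called higher and 2, 5 and 2 lower. Beside all these lists, 10.4%, 9.32% and 9.08% of all tested genes were called higher and 23.9%, 26.5% and 19.7% lower. Trim28 itself had group means of 32.2 and 23.2 FPKM without and with LPS in TLR4-WT and log2 differences of -0.47, -0.35 and 0.074, none of them called, and Setdb1 had -0.70, -0.24 and -0.63, none called. Of the HP1 genes Cbx3 and Cbx5 were called lower in TLR4-K730R (-1.42 and -1.15, adjusted p = 0.00177 and 0.00938 from limma), as was Atrx (-1.11, adjusted p = 0.00822), and Cbx1 was not called. Dnmt1, the maintenance DNA methyltransferase, fell by 1.27, 1.39 and 1.06 on the log2 scale and Chd3, a NuRD remodeller, fell by 1.33, 2.08 and 1.71, while Daxx, a histone H3.3 chaperone, rose by 2.31, 2.53 and 2.26 and Hdac1 rose by 0.83 and 0.79 in the mutants (0.69, not called, in TLR4-WT). These lists were not tested against each other.

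Markers of other cells moved with LPS as well. Of 6 neutrophil markers all are listed, and their sum was 22.1 to 46.7 FPKM in mock-treated and 167 to 239 FPKM in LPS-treated libraries, nearly all of it S100a8, while Ly6g is listed at 0 in 13 of 18 libraries and was at most 0.644 FPKM. Of 4 dendritic cell markers 2 are listed, with a sum of at most 1.96 FPKM in mock-treated and 3.03 to 5.76 FPKM in LPS-treated libraries, mostly Ccr7, while Flt3 and Xcr1 are not listed. The part of other cells in the Zfp differences was not tested.

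The comparison of mutant with TLR4-WT macrophages asks whether the lysine at the site matters for expression with or without LPS. A single Zfp gene was called, in mock-treated TLR4-K810R. Without LPS, 0 of 186 members were called in TLR4-K730R against TLR4-WT by limma, while 0.0515% and 0.216% of all tested genes were higher and lower (0.268% in either direction). When 1 library was left out these shares were 0% to 0.0309% and 0.113% to 0.144%. With LPS 0 members and 0% of all tested genes were called in that mutant. TLR4-K810R had 1 called member without LPS, where 0.927% and 0.649% of all tested genes were higher and lower (1.58% in either direction). The higher share was 0.155% to 0.185% without mock replicate 2 or 3 of TLR4-WT or mock replicate 3 of TLR4-K810R, and 0.0824% with these groups fitted alone. It was 0.361% without mock replicate 1 of TLR4-WT, and 0.577% and 0.865% without mock replicates 1 and 2 of TLR4-K810R. With LPS TLR4-K810R had 0 called by limma, against 0.0515% and 0.0824% (0.134% in either direction). Without LPS replicate 3 of TLR4-WT these shares became 2.04% and 0.876%, and with library weights 2.30% and 1.47%, with 1 member called in each case. At an unadjusted p below 0.05 these 4 comparisons held 10, 13, 13 and 18 members, and 7.7%, 7.69%, 14.1% and 21.8% of all tested genes. The LPS response of 0 members differed from that in TLR4-WT by limma, with 11 members each at an unadjusted p below 0.05 (7.02% and 13.2% of all tested genes for TLR4-K730R and TLR4-K810R). Called by adjusted p were 0.0412% of all tested genes for TLR4-K730R, and 0.103% higher and 0.0206% lower (0.124% in either direction) for TLR4-K810R. Libraries of mutant and TLR4-WT did not overlap for 13 members higher and 7 lower in mock-treated TLR4-K730R (8.91% and 7.45% of all tested genes) and for 11 and 14 with LPS (3.32% and 7.54%). For TLR4-K810R these were 15 and 5 without LPS (14.2% and 6.64%) and 19 and 9 with LPS (17.4% and 7.89%). The comparisons of both mutants share the TLR4-WT libraries. Their medians over the members lay between -0.0047 and 0.069 on the log2 scale.

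The 1 called gene was Zfp260, known from heart muscle, where it acts with GATA4, on chromosome 7 from 30094777 to 30107622, plus strand. In mock-treated macrophages it was at 1.16, 1.47 and 0.509 FPKM in TLR4-WT, 2.50, 2.50 and 2.50 FPKM in TLR4-K730R and 3.24, 3.44 and 4.90 FPKM in TLR4-K810R. The 3 groups did not overlap, with TLR4-WT lowest and TLR4-K810R highest. The log2 difference of TLR4-K810R from TLR4-WT was 1.26 (SE 0.21, adjusted p = 0.00279 from limma, where 0.927% of all tested genes were called higher), and that of TLR4-K730R was 0.81 (adjusted p = 0.148). With LPS it was at 3.59, 2.05 and 2.61 FPKM in TLR4-WT, 1.84, 1.94 and 1.96 FPKM in TLR4-K730R and 1.51, 2.42 and 2.74 FPKM in TLR4-K810R. It rose with LPS in TLR4-WT (0.88, adjusted p = 0.00245 from limma) and had differences of -0.27 and -0.60 in the mutants. The call between genotypes was lost without replicate 3 of mock-treated TLR4-WT, without replicate 3 of mock-treated TLR4-K810R and with the groups of the comparison fitted alone, where the adjusted p from limma was highest at 0.0807. With last-exon sums only Zfp260 did not enter the test. Mesothelium and fibroblast markers, all 6 of them listed, summed to 16.2 to 29.5 FPKM in mock-treated TLR4-WT, to 36.3 to 42.4 FPKM in mock-treated TLR4-K730R and to 68.3 to 181 FPKM in mock-treated TLR4-K810R. Intestinal markers, 7 of 8 listed with Cdx2 at 0, summed to at most 0.670 FPKM, 32.0 to 54.7 FPKM and 39.7 to 95.5 FPKM in the same groups. The 5 mast cell markers summed to 4.70 to 5.25, 0.494 to 2.58 and 0.797 to 2.64 FPKM. The 6 markers of resident peritoneal macrophages summed to 5.60 to 6.67, 5.29 to 6.80 and 6.45 to 14.5 FPKM and did not move together. Gata6 was at 1.13 to 1.47, 1.45 to 2.34 and 4.23 to 10.9 FPKM. Timd4 was at 1.05 to 1.49, 0.762 to 1.77 and 0 to 0.562 FPKM, and Icam2 at 2.18 to 3.64, 1.79 to 3.27 and 1.05 to 2.3 FPKM. Their part in the Zfp260 difference was not tested.

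The 4 members next in line by adjusted p were not called between genotypes. Zfp217 in mock-treated TLR4-K810R was at 7.62, 7.56 and 7.20 FPKM, below the 9.96 to 11.6 FPKM of TLR4-WT. The log2 difference was -0.49 (adjusted p = 0.0250 from limma). Zfp316 in LPS-treated TLR4-K810R was at 1.40, 1.44 and 1.74 FPKM, above the 0.573 to 0.621 FPKM of TLR4-WT (0.65, adjusted p = 0.0437 from limma). Zfp949 in LPS-treated TLR4-K810R was at 0.157, 0.430 and 0.745 FPKM, below the 1.07 to 2.72 FPKM of TLR4-WT (-0.87, adjusted p = 0.0711 from limma). With Zfp395, described above, each of these has groups that do not overlap and an adjusted p over the threshold.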

How the data were processed

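Peritoneal macrophages of 3 genotypes with and without LPS were sequenced, with 3 libraries per group, and groups follow the sample labels. Total RNA was isolated with a column kit and run on an Illumina instrument by a company. The authors deposited FPKM values per transcript event and library, scaled for transcript length and library size. The aligner and counting program are not given in the sources used here. The submitters' processing notes name hg18 as genome build, a human build, while the coordinates fit GRCm38, which is used here.

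First-exon and last-exon events on the strand and span of the named gene (GENCODE M21) were summed, and the larger sum was the gene's value. With all rows of a gene number kept, 198 genes instead of 192 meet the rule for members. Genes that reached 1 FPKM in 3 or more libraries entered limma 3.58.1 (R 4.3.3) on log2(FPKM + 1), with all 6 groups in 1 fit, a trend of variance with level, and p-values adjusted by Benjamini-Hochberg across 9707 genes. The pseudocount of 1 understates the change of low genes. Tables were made with Python 3.11.15 and pandas 2.3.3. The members, the gene lists and the marker lists were chosen with earlier results of these data known. Named genes are the 5 most abundant members, members called in the same direction in all 3 genotypes with separated libraries (up to 10 a direction), the 5 members nearest to a call between genotypes, members of the role lists, and the genes around the threshold of 1 FPKM. Zfp362 exons and the other called genes were named after their values were seen. Alternatives covered the pseudocount, filter, scaling, variance trend, library weights, gene ends, groups in the fit, a replicate block and left-out libraries. Promoters are RefSeq's.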

Additional observations from a re-analysis of the deposited data

Results flagged for a closer look

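In 4 members the LPS-treated libraries lay wholly on one side of the mock-treated libraries in one genotype and wholly on the other side in another, as 0.711% of all tested genes did. Zfp260 had log2 differences of 0.88, -0.27 and -0.60 in TLR4-WT, TLR4-K730R and TLR4-K810R, and its LPS response differed from that of TLR4-WT by -1.15 in TLR4-K730R (adjusted p = 0.322 from limma) and by -1.48 in TLR4-K810R (adjusted p = 0.0343), both over the threshold of 0.01. Zfp217 had -0.43, -0.25 and 0.23, with a difference of 0.66 between the responses of TLR4-K810R and TLR4-WT (adjusted p = 0.0874 from limma). Zfp280b had 0.37, -0.14 and -0.50, with a difference of -0.87 between the same responses (adjusted p = 0.146 from limma) and values between 0.560 and 1.85 FPKM in all libraries. Zfp59 had 0.23, -0.70 and -0.061, with a difference of -0.93 between the responses of TLR4-K730R and TLR4-WT (adjusted p = 0.647 from limma), and 52.4% of its transcript sequence is shared with other genes.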

How the results depend on the processing

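Among the counts of members called, those of 20, 20 and 18 genes lower after LPS in TLR4-WT, TLR4-K730R and TLR4-K810R became 13, 13 and 9 when the groups of a comparison were fitted alone (17%, 21.1% and 14.3% of all tested genes) and 12, 8 and 7 with median-of-ratios scaling (14.2%, 13.4% and 11.7%). In TLR4-K810R 9 of the 122 members that entered with last-exon sums only were lower (19.3%). Library weights gave 30, 26 and 17 (29.1%, 28.6% and 21.6%). The counts of 6, 4 and 4 higher genes became 11, 10 and 8 with median-of-ratios scaling (15.4%, 15.3% and 12.3%), 3 in TLR4-WT and 2 in TLR4-K810R with the groups alone (8.50% and 7.86%), 3 of 122 in TLR4-WT with last-exon sums only (10.5%), and 2 and 1 of 179 in TLR4-K730R and TLR4-K810R with first-exon sums only (9% and 8.62%). Without one library the lower genes numbered 15 to 24, 16 to 19 and 10 to 14, and the higher genes 3 to 6, 3 to 5 and 2 to 4. In those fits 18.6% to 23.9%, 21.1% to 23.5% and 15.5% to 17.3% of all tested genes were lower. Higher were 8.97% to 9.77%, 8.32% to 8.74% and 7.84% to 8.56%. The single call between mock-treated TLR4-K810R and TLR4-WT became 0 with the groups alone and 2 with library weights, and was 0 with last-exon sums only, where Zfp260 did not enter the test. Of all tested genes 0.0824% and 0.196%, 1.29% and 0.958%, and 0.986% and 0.719% were then called higher and lower. That count ranged from 0 to 1 without one library (0.155% to 0.865% of all tested genes higher and 0.35% to 0.505% lower). For LPS-treated TLR4-K810R against TLR4-WT the count of 0 became 1 with library weights and with a pseudocount of 0.1, and ranged from 0 to 1 without one library. Of all tested genes 2.30% and 1.47% were higher and lower with the weights, and 0.0824% each with that pseudocount. Without one library 0% to 2.04% were higher and 0.0103% to 0.876% lower. The other 4 genotype counts stayed at 0 under all alternatives run. The TLR4-WT higher count was 3 without LPS replicate 1, mock replicate 1 or mock replicate 3, and the TLR4-K810R lower count was 10, 11 and 10 without LPS replicate 1, LPS replicate 2 or mock replicate 3. The shares of all tested genes were 8.97%, 9.09% and 9.12%, and 17%, 16.3% and 15.5%. The cause of these changes was not tested. A threshold of 2 FPKM would leave 124 members and one of 0.5 FPKM 243. Depth is unknown, so the precision of genes near 1 FPKM rests on the spread of 3 libraries.

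Replicate numbers are shared between groups, but deviations of libraries with the same number correlated between -0.32 and 0.099, so they were not taken as pairs. With a replicate block the lower genes numbered 19, 21 and 16 (22.3%, 25.1% and 18.6% of all tested genes) and the higher genes 4, 3 and 4 (9.97%, 8.87% and 8.61%), with 1 call for mock-treated TLR4-K810R against TLR4-WT and 0 in the other 5 comparisons of genotypes. Among named genes the block ended the calls of Zfp217 and Zfp811 in TLR4-WT, of Zfp281 in TLR4-K730R and of Zfp971 in TLR4-K810R, and added one of Zfp516 in TLR4-K730R.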
